A study of Homo sapiens with 4 samples.

Results

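Lines of mesenchymal character were compared with lines of epithelial character within 1 family of colorectal cancer cells. All 4 libraries of the series entered: SA and SPH on the mesenchymal side, DLD1 and METS on the epithelial side, 2 lines a class, assigned by their labels and not by any measured value. DLD1 is an established human colorectal cancer cell line and the parent of the others. Soft agar colonies gave rise to SA, colonospheres (floating cell clusters) to SPH, and a lung metastasis of a xenograft to METS. All were kept in McCoy's 5A medium with fetal bovine serum, and total RNA was sequenced once per line. A difference between classes is therefore one between 2 derivatives and a pair made of their parent and a further derivative, all of a single tumour. The spread is that between lines, not between cultures of a line, and on the epithelial side that between parent and derivative. The labels do not say whether a derivative is 1 clone.

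Epithelial cells sit in sheets held by E-cadherin junctions, with a cytoskeleton of keratin filaments. In an epithelial-mesenchymal transition (EMT), cells lose junctions and polarity and take up vimentin filaments and matrix proteins, a programme classically driven by the ZEB, SNAI and TWIST transcription factors, which repress the E-cadherin gene. Partial states, in which vimentin appears while E-cadherin is kept, are well known in carcinoma, and the reverse transition is often described in metastases.

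Levels were given in RPKM, read counts scaled to transcript length and to the size of the library, and class differences are the mean of SA and SPH minus the mean of DLD1 and METS on the log2(RPKM + 1) scale, which understates the change of genes near 0. Of 57746 genes listed, 11262 reached 1 RPKM in at least 2 of the 4 libraries and were tested with limma-trend, a linear model that borrows the spread across genes. At an adjusted p under 0.05 (Benjamini-Hochberg over all genes tested), 36 genes were higher in the mesenchymal lines, 0.32% of those tested, and 4 were lower, 0.0355%. The median difference over all genes was 0.04. An exact permutation test of 2 lines against 2 cannot give a two-sided p under 0.333 for a single gene, so these calls rest on the spread pooled over genes. They also rest on single libraries: 5 higher and 0 lower genes were called without SA, 6 and 0 without SPH, 207 and 98 without DLD1, and 20 and 7 without METS, where the lone line of a class is assumed to vary like the other pair. VIM, IGFBP7, SPARC and KRT5 were among those that passed in each of these 4 fits.

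The textbook markers were set against the labels first. VIM, the mesenchymal intermediate filament protein vimentin, stood at 0.18 RPKM in DLD1 and 0.22 in METS, against 12.5 in SA and 12.2 in SPH. In RNA from whole cultures, fewer cells with a transcript and less of it per cell cannot be told apart. Several other textbook genes of the mesenchymal state were under 1 RPKM in every line. N-cadherin (CDH2) lay between 0.12 and 0.21 RPKM in all 4 lines, fibronectin (FN1) between 0.43 and 0.69, ZEB1 at 0.26 in SA and 0.23 in SPH against 0.02 in DLD1 and 0.06 in METS, TWIST1 at 0.02 or less, and ZEB2 was listed at 0 throughout. SNAI1 was tested, at 1.52 to 2.41 RPKM, and was not called. SPARC, LGALS1, MSN and AXL, also on the list of mesenchymal markers, were called higher and are described below. E-cadherin (CDH1) was at 115 RPKM in DLD1, 103 in METS, 94.5 in SA and 97.3 in SPH, and the epithelial surface protein EPCAM at 212, 263, 222 and 231 in the same order, and neither passed the test. SA and SPH thus carried high VIM beside high CDH1 and EPCAM, and they are called mesenchymal here after their labels. CDX2, the intestinal transcription factor, lay between 27.6 and 36.0 RPKM in all 4 lines. Other intestinal markers were uneven in level. CDH17 lay between 14.18 and 34.98 RPKM and VIL1 only between 1.39 and 3.35, neither called. LGALS4 lay between 0.31 and 0.75 RPKM and was too low to be tested.

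The stretches upstream of 2 genes higher in SA and SPH and 2 genes lower in them are printed because these are marker genes of the 2 classes and their CpG content is described further on. Each is the 250 bases before a RefSeq transcript start, read 5′ to 3′ on the gene's strand in GRCh38.p14, with CpG dinucleotides in capitals. The VIM stretch lies at chr10:17227991-17228240 on the plus strand and has 8 CpG, and that of SPARC at chr5:151686916-151687165 on the minus strand and has 7. The INHBB stretch lies at chr2:120345886-120346135 on the plus strand with 46 CpG, and that of EFHD1, before one of its starts, at chr2:232633354-232633603 on the plus strand with 28.
VIM: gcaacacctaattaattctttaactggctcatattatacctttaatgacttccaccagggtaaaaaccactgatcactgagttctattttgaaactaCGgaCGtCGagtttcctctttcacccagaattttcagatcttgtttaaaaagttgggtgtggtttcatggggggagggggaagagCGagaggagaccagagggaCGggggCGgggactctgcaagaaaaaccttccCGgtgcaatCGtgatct
SPARC: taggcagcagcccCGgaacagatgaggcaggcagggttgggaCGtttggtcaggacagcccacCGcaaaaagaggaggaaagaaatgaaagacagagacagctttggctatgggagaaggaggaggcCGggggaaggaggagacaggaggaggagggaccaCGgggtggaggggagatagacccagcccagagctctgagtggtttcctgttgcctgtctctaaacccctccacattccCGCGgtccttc
INHBB: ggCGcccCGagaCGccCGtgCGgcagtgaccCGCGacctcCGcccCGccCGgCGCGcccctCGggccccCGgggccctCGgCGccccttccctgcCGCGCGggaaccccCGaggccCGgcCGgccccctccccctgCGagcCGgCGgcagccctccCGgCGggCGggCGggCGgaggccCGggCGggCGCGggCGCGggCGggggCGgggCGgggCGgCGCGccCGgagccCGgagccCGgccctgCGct
EFHD1: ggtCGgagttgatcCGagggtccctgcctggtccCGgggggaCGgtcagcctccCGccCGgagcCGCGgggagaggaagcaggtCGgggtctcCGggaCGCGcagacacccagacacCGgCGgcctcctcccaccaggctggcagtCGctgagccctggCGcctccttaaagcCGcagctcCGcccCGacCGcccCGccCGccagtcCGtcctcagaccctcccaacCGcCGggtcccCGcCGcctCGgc

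The genes higher in SA and SPH differed by 1.03 to 3.47 on the log2 scale, with a median of 1.35 and standard errors of 0.11 to 0.25. Most were near silent in the epithelial lines: 16 of the 36 lay under 0.1 RPKM in both, 5 of these being listed at 0 in both, and in 17 more the larger of the 2 epithelial values lay between 0.1 and 1 RPKM. These 33 genes could enter the test only through SA and SPH, so that their direction was set by entering. In all, 166 genes entered that way, against 54 that entered only through DLD1 and METS, of which none was called. LGALS1 and RGCC were among the 3 called genes that were also at 1 RPKM in an epithelial line. By RefSeq annotation 34 of the 36 were protein coding, and they lay on 20 different chromosomes.

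Secreted and matrix proteins made up the first group. IGFBP7, a secreted protein that binds insulin-like growth factors, was at 0.12 and 0.04 RPKM in DLD1 and METS and at 6.17 and 6.23 in SA and SPH (difference 2.74 ± 0.12). SPARC, a collagen-binding matricellular protein, was at 0.19 and 0.13 against 5.96 and 5.72 RPKM (difference 2.56 ± 0.12). Limma-trend gave both an adjusted p of 0.0013. In both genes the 2 lines of a class lay close together and far from the other class, a pattern that the test selects for. LOXL4, a lysyl oxidase that crosslinks collagen, was at 0.03 and 0.09 RPKM in the epithelial lines and 2.30 and 2.25 in SA and SPH. TGM2, the tissue transglutaminase that crosslinks proteins, was at 0.29 and 0.15 against 3.39 and 3.16 RPKM. Among their near relatives LOXL2 split the same way at a lower level, at 0.06 and 0.01 against 0.41 and 0.37 RPKM, and like LOX and LOXL1, at 0.11 or less, it was too low to be tested. LOXL3 was tested and not called, at 2.3 and 1.44 against 2.5 and 1.62 RPKM, with the classes overlapping and a difference of 0.09. TGM1 was also tested and not called, with a difference of -0.24. LGALS1, the secreted lectin galectin-1, was at 4.66 RPKM in DLD1, 6.65 in METS, 15.8 in SA and 19.4 in SPH, a ratio of class means of 3.11. STC2, the hormone stanniocalcin-2, and NELL2, a secreted neural protein, were both listed at 0 in DLD1 and METS and lay between 1.55 and 1.78 RPKM in SA and SPH. CST1, an inhibitor of cysteine proteases, was the called gene with the widest gap within a class: 0.70 RPKM in DLD1 and 0.02 in METS, against 5.52 in SA and 6.93 in SPH (difference 2.45 ± 0.25, adjusted p = 0.031 in limma-trend).

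Among the called genes, 3 antagonists of WNT signalling, which WNT itself often induces as feedback, formed a second set of secreted or surface proteins. DKK4, which blocks the WNT co-receptors, was at 0.04 RPKM in each epithelial line, 4.26 in SA and 3.47 in SPH (difference 2.22 ± 0.13, adjusted p = 0.005 in limma-trend). APCDD1, a membrane-bound inhibitor, was at 0.27 and 0.38 RPKM against 3.06 and 2.59. NOTUM, an enzyme that strips WNT of its lipid, was at 0.65 and 0.48 RPKM against 2.22 and 2.57. All 3 were separated between classes by more than the gap within either, which is what the test selects for. All 3 also entered the test through SA and SPH alone, so that their direction was set by entering. Of 22 tested genes in the list of WNT targets and antagonists, these 3 were called higher and none lower, against 0.32% and 0.0355% of all genes tested. In 10 the 2 mesenchymal lines lay above both epithelial lines, and in 1, CCND1, below, where over all genes tested 24.7% were so separated upward and 13.1% downward. Other antagonists on the list were not called. NKD1 (difference 0.63) and RNF43 (0.38) were separated upward, while NKD2 (0.44) and ZNRF3 (-0.06) overlapped between classes. DKK1, WIF1 and SFRP5 were too low to be tested. Common targets of the pathway were not called: AXIN2 was at 104, 116, 122 and 95.2 RPKM in DLD1, METS, SA and SPH, a difference of -0.03, MYC differed by 0.05, and the stem cell receptor LGR5 by 0.26. The list's median was 0.23 (0.16 without SA), against 0.04 over all genes, and 0.10 over its 19 members that did not enter through SA and SPH alone.

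Among cytoskeletal genes VIM had the largest difference of all genes called, 3.47 ± 0.11 with adjusted p = 0.00063 in limma-trend, and a ratio of class means of 61.7. KRT5, the basal keratin of stratified epithelia and not a mesenchymal gene, was at 0.13 RPKM in DLD1 and 0.07 in METS against 4.96 in SA and 5.15 in SPH (difference 2.46 ± 0.12, adjusted p = 0.0014 in limma-trend). Its usual partner KRT14 lay at 0.01 RPKM or less in all 4 lines. The simple keratins of gut epithelium remained by far the most abundant filament genes. KRT8 was at 817 RPKM in DLD1 and 1084 in METS against 565 in SA and 587 in SPH. Its difference of -0.71 ± 0.15 did not pass (adjusted p = 0.29, limma-trend). KRT18 and KRT19 had differences of -0.64 and -0.59, and the further keratin KRT80 one of -0.76, also not called. In all 4 of these keratins both mesenchymal lines lay below both epithelial lines. Of the 8 keratins tested, KRT5 and KRT10 (difference 0.39, not called) were separated upward. Over all genes tested, 24.7% were so separated upward and 13.1% downward, shares that moved with scaling. Called higher were 0.32% of all genes tested and called lower 0.0355%. KRT7 and KRT20 overlapped between classes, with KRT20 at 21.9 RPKM in DLD1 and 0.5 in METS against 4.06 and 3.18. MSN, moesin, which ties the membrane to actin, was at 0.11 and 0.04 RPKM in the epithelial lines and 2.23 and 2.18 in SA and SPH. Its relatives ezrin (EZR) and radixin (RDX) were 117 to 172 RPKM and 15.9 to 21.7 RPKM across lines, with differences of -0.44 and -0.34, not called. TUBB2B, a beta-tubulin isotype of neurons, was at 0.52 and 0.26 against 3.34 and 4.15 RPKM. It was the 1 called gene of 10 tested tubulins. GMFG, a regulator of branched actin, ARHGAP4, a GTPase-activating protein, and PRKCDBP (cavin-3), a coat protein of caveolae, were also called, with differences of 1.48, 1.23 and 1.09. LIMS3_2, of a LIM-domain family with near-identical copies, was called at 1.09 and is uncertain, since reads could be split between copies. Over 30 tested linkers and actin-binding genes the median was -0.12 (0.01 without DLD1), with MSN called higher and VILL lower.

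Several called genes code for membrane proteins. AXL, a receptor tyrosine kinase often linked to EMT, was at 0.28 and 0.15 RPKM in DLD1 and METS and at 1.90 and 1.5 in SA and SPH, just inside the threshold (adjusted p = 0.0497, limma-trend), and CTC-429P9.4 and VILL shared that p. The first gene outside it was ADAM19, a membrane protease, at 0.05 and 0.13 against 1.18 and 1.17 RPKM (difference 0.998 ± 0.12, adjusted p = 0.0522, limma-trend). EDAR, a receptor of the tumour necrosis factor family, was at 0.44 and 0.28 against 2.26 and 2.43 RPKM, and EMP3, a small membrane protein, at 0.51 and 0.19 against 2.27 and 2.56. CLDN11, a claudin better known from myelin and testis, was at 0.06 and 0.07 against 1.56 and 1.38 RPKM, while the tested claudins of the junction list, CLDN1, CLDN3, CLDN4, CLDN7 and CLDN12, were not called. ANO6, an anoctamin that scrambles membrane lipids, and SLC17A9, a carrier of nucleotides into vesicles, were listed at 0 in both epithelial lines and lay between 1.03 and 1.37 RPKM in SA and SPH.

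Genes of vitamin uptake and metabolism were also among those called. STRA6, the membrane receptor that takes up vitamin A, was at 0.01 RPKM in DLD1 and listed at 0 in METS, against 1.39 in SA and 1.29 in SPH (difference 1.22 ± 0.12, adjusted p = 0.031 in limma-trend). DHRS2, a short-chain dehydrogenase, CHST11, which sulphates chondroitin, ELOVL5, which lengthens polyunsaturated fatty acids, and CBS, the first enzyme of transsulphuration, had differences of 1.21, 1.23, 1.23 and 1.07. Each lay at 0.11 RPKM or less in both epithelial lines and between 1.10 and 1.55 in SA and SPH.

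Regulators and remaining genes completed the set. RGCC, a cell-cycle regulator first found as a complement response gene, was at 1.67 RPKM in DLD1 and 1.62 in METS against 4.42 and 5.12. GLI3, a transcription factor of the hedgehog pathway, was at 0.01 and 0.03 against 1.14 and 1.02 RPKM. PRF1, the pore-forming protein perforin of killer lymphocytes, was at 0.30 and 0.86 against 4.19 and 3.65 RPKM, while the defining leukocyte genes PTPRC, CD3D and CD3E were listed at 0 in all 4 lines and NKG7 and GNLY, of the same killer cells, lay at 0.24 or less. Without PRF1 no gene of the 12 leukocyte markers reached the test. CTC-429P9.4, a transcript with no protein name, was at 0.74 and 0.61 against 2.24 and 2.59 RPKM.

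**Figure D1:**
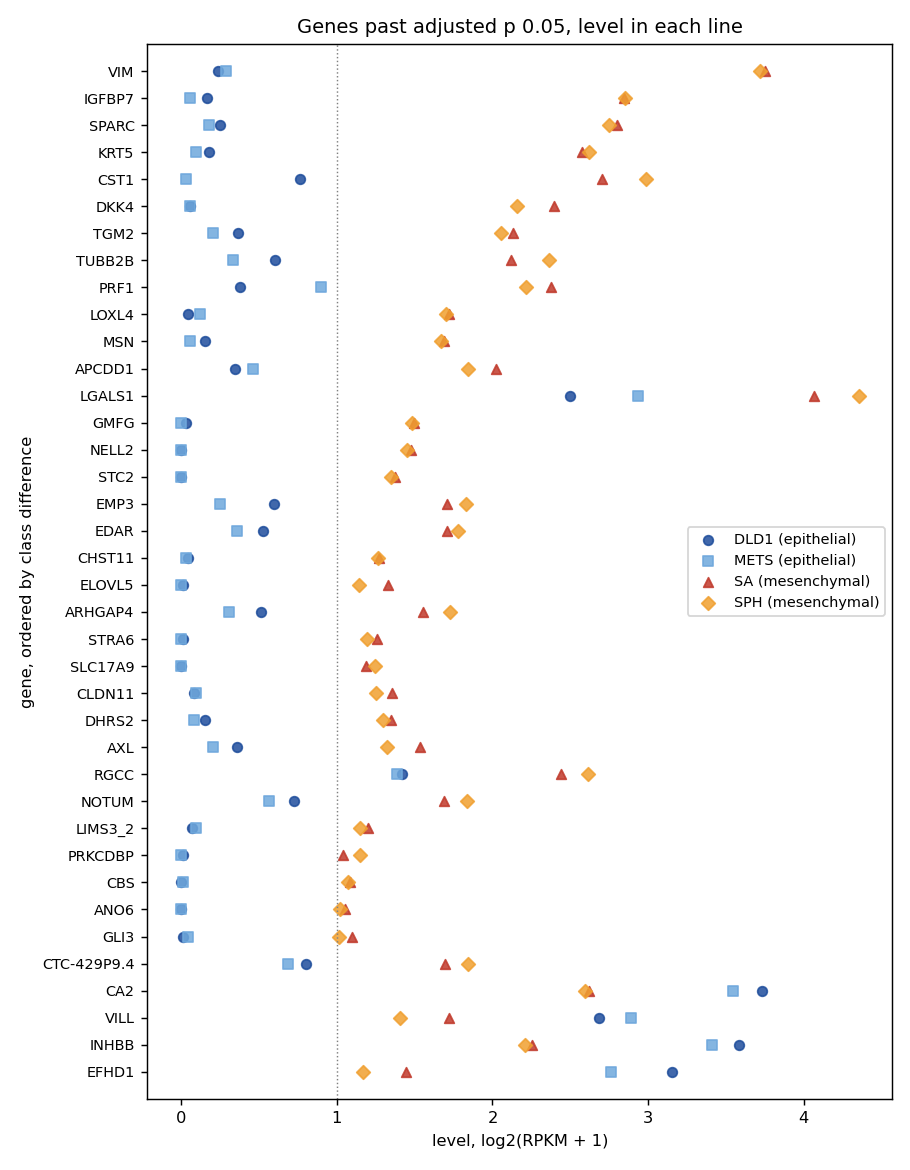
Level of 38 of the 40 called genes in each line on the log2(RPKM + 1) scale, with genes ordered by class difference and the dotted line at 1 RPKM. Symbols are single libraries. In the higher genes SA and SPH lie right of both epithelial lines, and in CA2, VILL, INHBB and EFHD1 they lie left of them.

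The 4 genes called lower all stayed expressed in SA and SPH. EFHD1, a calcium-binding mitochondrial protein, was at 7.89 RPKM in DLD1 and 5.78 in METS against 1.72 in SA and 1.25 in SPH, a difference of -1.65 ± 0.17 (adjusted p = 0.034, limma-trend). INHBB, the beta-B subunit of activin and inhibin, was at 11 and 9.62 RPKM against 3.78 and 3.62 (difference -1.26 ± 0.12, adjusted p = 0.023, limma-trend). CA2, a carbonic anhydrase of mature colon cells, was at 12.3 and 10.7 against 5.16 and 5.05 RPKM, and VILL, a villin-like actin-binding protein, at 5.44 and 6.4 against 2.29 and 1.65. The classes did not overlap in any of them. The mean RPKM of SA and SPH was 0.217 times that of DLD1 and METS for EFHD1, 0.359 times for INHBB, 0.333 times for VILL and 0.444 times for CA2. INHBB was the only called gene of 24 tested in the list of TGF-beta, BMP and activin genes, whose median was -0.01 (0.03 without DLD1 or SA, 0.04 without METS), and the other activin subunit INHBA was listed at 0 in all 4 lines. CA2 and VILL were the only called genes of 10 tested intestinal differentiation genes, where 0.0355% of all genes tested were called lower. In that list CDH17, an intestinal cadherin, and MUC13, a membrane mucin, lay higher in both mesenchymal lines, with differences of 0.73 and 1.20 that were not called.

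The rule of size, with no model of spread, gave a similar balance: 33 genes were at least 2-fold higher on the log2(RPKM + 1) scale in all 4 pairs of a mesenchymal with an epithelial line, 0.293% of genes, and 6 were as far lower, 0.0533%. Of the 33, 32 were also called, the exception being DBN1, the actin-binding protein drebrin, at 0.41 and 0.09 against 1.82 and 1.82 RPKM. A 4-fold gap in all pairs was met by 6 genes, all higher. Of the 6 lower genes only EFHD1 and INHBB were called. The others were H19, an imprinted long noncoding RNA, at 58.0 RPKM in DLD1 and 2893 in METS against 9.74 in SA and 14.7 in SPH; S100P, a calcium-binding protein, at 33.1 and 129 against 6.78 and 9; C6orf15 at 8.95 and 19.1 against 2.94 and 3.06; and ALPP, the placental alkaline phosphatase, at 8.89 and 8.21 against 3.25 and 2.01. In H19, S100P and C6orf15 the gap between DLD1 and METS was itself wider than 2-fold. Of the next genes by smallest gap, CHAC1, a glutathione-degrading enzyme induced by amino acid stress, was at 9.96 and 11.4 against 4.58 and 3.20 RPKM, and MGST1, a microsomal glutathione transferase, at 4.88 and 8.14 RPKM against 2.22 in SA but 0.03 in SPH.

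**Figure D2:**
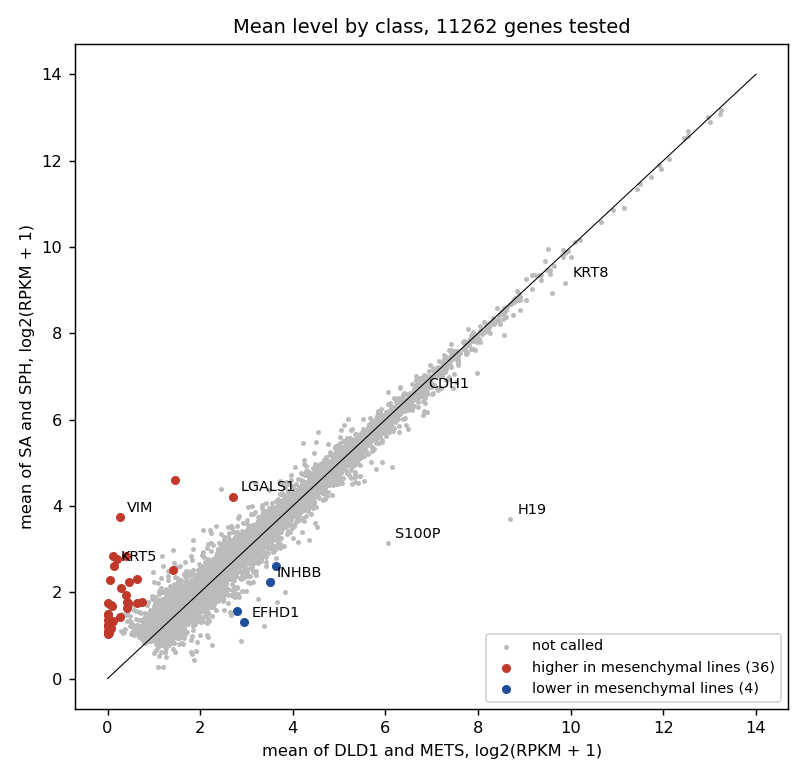
Mean log2(RPKM + 1) of SA and SPH against that of DLD1 and METS for 11262 tested genes, with the line of equality. The 36 higher genes lie mostly at the left edge, where the epithelial mean is near 0, and the 4 lower genes lie in the low to middle range, while H19 and S100P lie further from the line without being called.

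The epithelial pair was less alike than the mesenchymal pair. The SD of METS minus DLD1 over genes was 0.309 and that of SPH minus SA 0.207, and 137 genes were at least 2-fold apart on the log2(RPKM + 1) scale in the first pair against 28 in the second. A class difference of 1 or more without a call was found in 51 genes, 30 higher and 21 lower, and in 25 of them METS and DLD1 were themselves that far apart. Tenascin C (TNC), a matrix glycoprotein, was at 5.55 RPKM in DLD1, 0.08 in METS, 6.61 in SA and 7.12 in SPH, with METS far below the other 3 lines and a class difference of 1.56 that was not called. S100A4, often used as a mesenchymal marker, was at 8.56, 305, 28.5 and 52.4 RPKM in that order, with METS above both mesenchymal lines. CD44 was at 4.37, 1.36, 5.84 and 5.6 RPKM, and MET, the hepatocyte growth factor receptor, at 16.6, 8.97, 23.3 and 22.7. In both genes DLD1 lay closer to the mesenchymal lines than METS did.

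**Figure D3:**
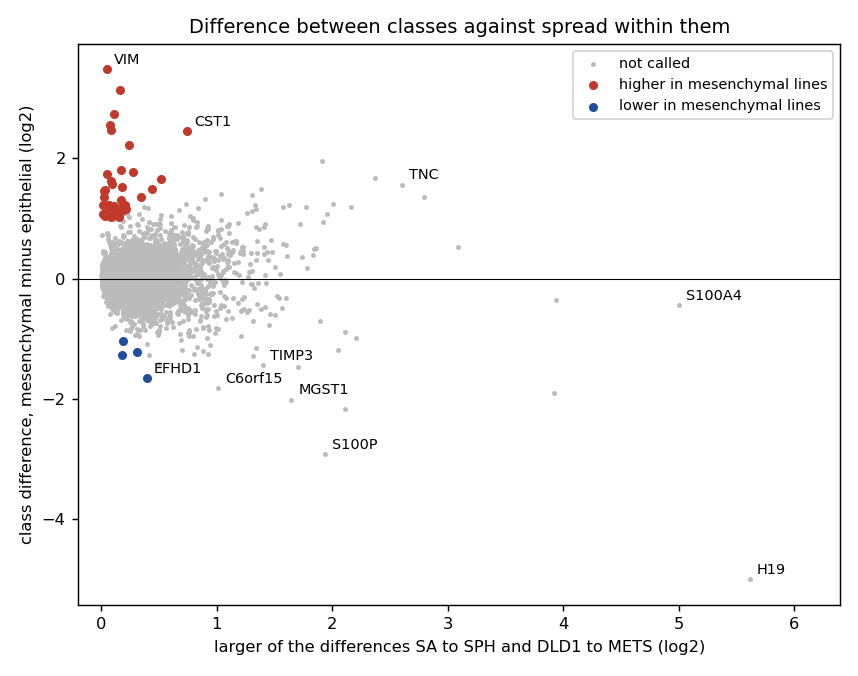
Class difference of each tested gene against the larger of its gaps within a class, both in log2 units. Called genes sit at the left, with small gaps within classes, which the test favours. H19, S100A4, S100P and TNC sit at the right, where METS and DLD1 differ.

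Looser counts take in small differences as well. In 2778 genes, 24.7%, both mesenchymal lines lay above both epithelial lines, and in 1478, 13.1%, below. Random order of the 4 lines would separate a gene upward or downward with probability 0.333. Separation alone therefore does not mark a class shift. The balance depended on scaling: 65.3% of genes so separated were higher as deposited, 53.5% after median-of-ratios factors (2219 higher, 1929 lower) and 52.5% after centring each library on its median gene (2152 and 1945). Lists of genes are described by the same counts, with no test over a list. Of 16 tested mesenchymal markers 6 were called higher, VIM, SPARC, LGALS1, MSN and AXL among them, and none lower. Over all genes tested, 0.32% were called higher and 0.0355% lower. The 4 markers that entered through SA and SPH alone could not have been called lower. In this list 9 genes were separated upward and 3 downward. The list's median was 0.57 (0.26 without METS, 0.90 without DLD1) but 0.12 over the 12 that did not enter the test through SA and SPH alone. Of its 30 members, 14 stayed under 1 RPKM in every line, among them the collagens COL1A1, COL1A2 and COL3A1. The list of EMT transcription factors had 4 tested members, with none called: SNAI1 was at 2 and 2.41 RPKM in DLD1 and METS against 1.52 and 1.94, and SOX4 at 24.4 and 25.5 against 32.8 and 31.5.

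Epithelial genes leaned the other way without a call. Over all genes tested, 13.1% were separated downward and 24.7% upward, and these shares moved with scaling. Of 33 tested adhesion and junction genes none was called, 17 were separated downward and none upward, and the median was -0.17. It lay between -0.21 and -0.15 under other scalings, a correction for GC content and with any 1 line left out. CLDN7 was at 105 and 126 against 72.2 and 93.9 RPKM. The desmosome gene PKP2 went against the list, at 27.1 RPKM in DLD1, 11.1 in METS, 25.3 in SA and 25.7 in SPH. Among 20 tested epithelial transcription and splicing regulators, 6 were separated downward, none upward and none called. OVOL1, a repressor of EMT genes, was at 4.97 and 5.94 RPKM against 3.31 and 3.04, while the splicing factor ESRP1 was at 4.24 and 5.28 against 4.59 and 4.54.

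Lists on matrix and adhesion held few called members. LOXL4 and TGM2 were the called genes of 15 tested crosslinking and collagen-processing genes, and SPARC and IGFBP7 those of 17 tested matricellular genes. These genes entered the test through SA and SPH alone. Over all genes tested, 0.32% were called higher and 0.0355% lower. No gene was called among 13 collagens and laminins or among 10 integrins. In these 4 lists the median lay between 0.03 and 0.13, and without METS all 4 medians were below 0, from -0.11 to -0.08, while without DLD1 they ran from 0.18 to 0.46, so their direction and size rested on the epithelial lines. The integrin median was also below 0 under both other scalings and the GC correction, at -0.01, and the crosslinking median without SA, at -0.03, and under the GC correction, at -0.01. ITGB4, the hemidesmosome integrin, was at 31.6 and 28.2 RPKM against 22.4 and 21.4, not called, and COL17A1, its partner there, at 2.26 and 1.15 against 2.65 and 4.09. Of 23 tested proteases and inhibitors, 2 were called, CST1 among them. TIMP3, an inhibitor of metalloproteases, was at 1.26 and 4.97 RPKM in DLD1 and METS against 0.73 and 0.06, and SLPI, a secreted inhibitor of elastase, at 17.2 and 28.4 against 12.9 and 8.42. Neither was called.

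Receptors, stress and metabolism were mixed. Beside the counts below, 24.7% of all genes tested were separated upward and 13.1% downward, shares that moved with scaling. Called higher were 0.32% of all genes tested and called lower 0.0355%. AXL was the only called gene of 32 tested receptor tyrosine kinases and ligands, of which 6 were separated upward and 12 downward. FGFR3 was at 1.72 and 3.41 RPKM against 0.74 and 0.34, and the epidermal growth factor receptor ligand AREG at 95.5 and 147 against 72.6 and 69.7, neither called. In the list of amino acid and unfolded protein stress, 14 of 24 tested genes were separated downward and 3 upward, with a median of -0.18. STC2 was its only called member, and it moved upward. ASNS, the asparagine synthetase, was at 37.6 and 48.6 RPKM against 25.6 and 24.3 (difference -0.75 ± 0.14, adjusted p = 0.23 in limma-trend). In cholesterol and fatty acid synthesis 13 of 27 tested genes were separated downward and 1 upward, with a median of -0.20 and no call. HMGCS1, which starts the mevalonate pathway, was at 83.1 and 87.1 RPKM against 66.3 and 62.5. Both lists kept a median below 0 under other scalings, GC correction and every leave-out, at -0.23 to -0.16 and -0.24 to -0.12. Of 30 proliferation genes 15 were separated upward and 1 downward, with none called and a median of 0.13, and the proliferation antigen MKI67 was at 31.3 and 23.1 RPKM against 38.6 and 35.3. Without DLD1 that median was 0.28, and without METS it was 0.03 and 11 of the 30 lay below DLD1 in both mesenchymal lines. The S100 proteins, whose median was -0.33, stood at -0.03 without METS, -0.22 without SA and -0.53 without DLD1.

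**Figure D4:**
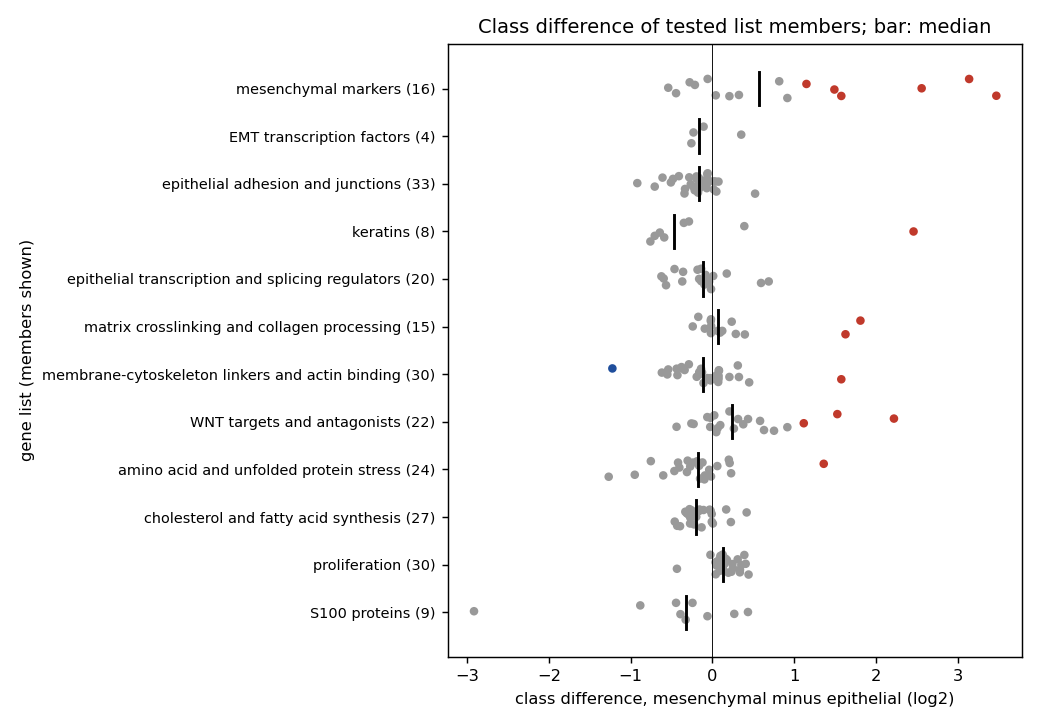
Class difference (log2 units) of each tested member of 12 gene lists, 1 point per gene with vertical jitter only to part the points, red or blue where called higher or lower, and a bar at the list's median. KRT5 lies far above the other keratins, most of which lie below 0, and LOXL4 and TGM2 lie above the rest of the crosslinking list, which gathers near 0.

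Markers of other cell types stayed low. All 10 fibroblast markers were under 1 RPKM in every line, 4 of them listed at 0 throughout, with a summed level of 0.22 to 0.49 RPKM. Sums over neural, muscle, endothelial and lung epithelial markers ran from 0.21 to 1.91 RPKM. Leukocyte markers summed to 1.82 RPKM in DLD1, 2.72 in METS, 5.37 in SA and 5.24 in SPH, and PRF1 alone held most of the excess in SA and SPH. Depth was similar: 1 RPKM on a transcript of 1 kilobase stood for 48.4 to 53.8 reads, and mitochondrial genes held 25.5 to 26.6% of the summed level, both with overlap between classes. At least 1 RPKM was reached by 11030 genes in DLD1 and 10920 in METS against 11177 in SA and 11238 in SPH.

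The upstream stretches printed above belong to a feature that the choice of genes did not use. RefSeq promoter windows of 300 bases, 250 before and 50 after a start, were found for 21 of the 36 higher genes (31 windows, since some genes have several) and for 8687 of all genes tested (12566 windows). The ratio of observed to expected CpG had a median of 0.436 in windows of the higher genes and 0.829 in those of all genes, and 45.2% against 78.8% of windows were above 0.6. The 102 matched genes that entered the test only through SA and SPH, called or not, lay between, with a median of 0.754 and 61.6% above 0.6. VIM and SPARC had ratios of 0.584 and 0.401. Low ratios were not general among the higher genes, since 14 of the 31 windows were above 0.6. APCDD1 (0.786), CHST11 (0.972) and RGCC (1.02) were among these, and AXL, CBS, CLDN11, EMP3 and MSN had windows on both sides of 0.6. STRA6 had more windows than any other higher gene, all of them low, from 0.0921 to 0.4365. The median of 0.436 is itself the value of a STRA6 window, so it leans on this gene. Of the 4 lower genes 3 matched, with 5 windows and a median of 0.513, too few to place: INHBB had a ratio of 0.986 and EFHD1 of 0.838, but the 3 windows of VILL, not printed, had 0.233 to 0.513. The windows of 1 gene overlap or share sequence, only part of the genes matched, and no test was made. Motifs were searched on both strands. The E-box CAGGTG, bound by ZEB and SNAI factors, was in 22.6% of the higher genes' windows and 18.8% of all windows, the AP-1 motif TGANTCA in 3.23% and 5.02%, the TEAD motif GGAATG in 9.68% and 11.1%, the TCF motif CTTTGA in 6.45% and 8.74%, and the TATA box TATAAA in 16.1% and 5.75%. For the higher genes these shares stand for 7, 1, 3, 2 and 5 windows of 31.

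**Figure D5:**
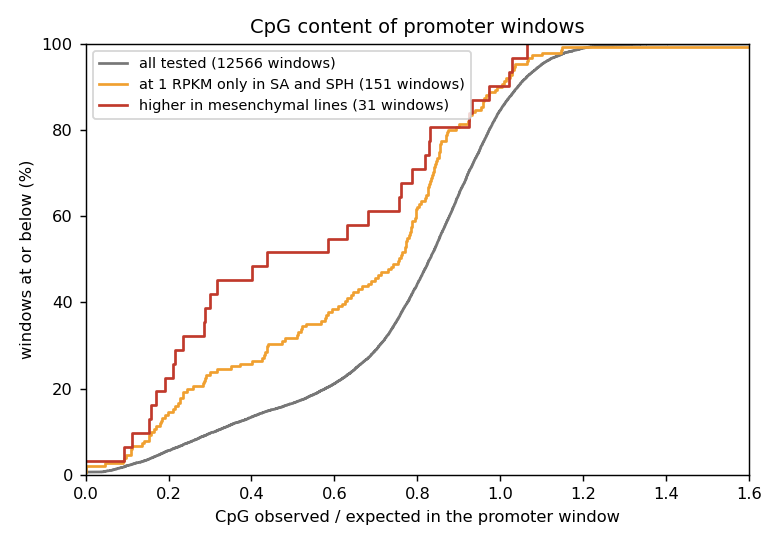
Share of promoter windows at or below each ratio of observed to expected CpG, for 31 windows of genes higher in SA and SPH, 151 windows of genes at 1 RPKM in SA and SPH but in neither epithelial line, and all 12566 windows. The curve of the higher genes rises earliest, and that of the wider set runs between it and all genes.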

How the data were processed

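Total RNA of 4 cell lines, 1 library each, was sequenced (standard Illumina preparation, per the labels' protocols). Values were deposited as 1 table of RPKM per gene symbol, rounded to 2 decimals, on hg19 per the submitters' processing notes; neither aligner nor counter nor gene models could be read from the labels, and no read counts were used. Rounding and length models limit the precision of genes near 0: 0.1 RPKM on 2 kilobases stood for 9.71 to 10.8 reads, derived from the step between values. From these values log2(RPKM + 1) was taken, genes under 1 RPKM in 3 or more libraries were dropped, and the classes were compared with limma 3.58.1 (R 4.3.3; trend, no covariates, Benjamini-Hochberg). The script was tested on simulated data. Named genes are all those called, the 15 furthest apart in each direction by smallest pair, up to 4 per list by size, and defining markers; a few of these genes are counted but not reported here. Genes and lists were chosen with earlier results of these data known. The promoter comparison, the stretches printed, the grouping by product and the GC correction were chosen after values were seen, as were the unranked genes named as relatives or examples. Promoters came from RefSeq GRCh38.p14. Gene symbols were matched to RefSeq for 10619 of 11262. Alternatives covered pseudocount, filter, scaling, limma options, GC content (transcripts of GENCODE 29) and leaving out each line. Python 3.11.15 with pandas 2.3.3 was used.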

Additional observations from a re-analysis of the deposited data

How the results depend on the processing

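Every called gene kept its sign in each setting in which it was tested. For most settings this was fixed in advance. The classes did not overlap in any called gene, so another pseudocount, another filter or a line left out could not turn a sign. As reported, 36 genes were higher and 4 lower, and 33 and 6 were 2-fold higher and lower in all pairs. With a pseudocount of 0.1, 23 genes were called higher, and 58 and 16 were 2-fold higher and lower; with one of 5, 4 and 2 were 2-fold apart. Without a filter, 24097 genes were tested and limma called 0 higher and 0 lower, with 2208 at an unadjusted p under 0.05. At a minimum of 5 RPKM, 4 higher and 1 lower were called (VIM, IGFBP7, SPARC and INHBB among them) and 6 were 2-fold higher; at a mean of 1 RPKM, 14 and 2, with 20 2-fold higher. Centring on the median gene and robust limma each called 7 lower. Leaving out 1 line gave 5 to 207 higher, 0 to 98 lower, 36 to 114 2-fold higher and 10 to 42 2-fold lower. Without SA, SPH or METS, 5, 6 and 21 of the 40 calls were kept, and all 40 without DLD1; without METS the losses include AXL, RGCC and VILL. All 40 were also kept under median-of-ratios factors, centring, limma without trend and robust limma, and 29 of 37 under the GC correction. The cause of these shifts was not tested, beyond fewer or more genes and lines entering. No paired analysis was possible, since each line has 1 library and the labels give no 1-to-1 match between the classes. DLD1 is the parent of SA, SPH and METS alike, so the lines are not independent replicates of a class. Most higher genes lie near 0 in the epithelial lines, where the scale, the filter and rounding act most. How far this bears on the shifts was not tested.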
